A study of Homo sapiens with 62 samples.

Results

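The proteasome genes described here are the protein-coding genes with symbols PSMA, PSMB, PSMC or PSMD followed by a number, PSME1 to PSME4, PSMF1, PSMG1 to PSMG4, and POMP. There are 49 of them among the 58735 genes of the tables on the GRCh38 build. In GRCh38, 2 lie on the long arm of chromosome 1 (PSMB4 and PSMD4 on 1q), 2 on the short arm of chromosome 7 (PSMA2 and PSMG3 on 7p), 0 on 8q and 45 elsewhere. The A2780 tables hold 50 such entries among 48162 genes, because the name PSMA1 stands there for a second, overlapping gene, which was left out.

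The series is RNA-seq of 62 poly-A libraries from 5 human cell lines in 16 groups, in which an engineered loss of a gained chromosome arm is compared with the parental line. A2058 (melanoma) gave 4 wild-type (WT) libraries with gains of 1q, 7p and 8q, 4 libraries of 2 1q-loss clones, 6 of 3 7p-loss clones and 4 of 2 8q-loss clones, all made with the CO version of the chromosome-loss method ReDACT. HCT116 (colorectal cancer, 8q gain) gave 2 WT libraries and 4 of 2 8q-loss clones made with the CO version. AGS (gastric cancer, 1q gain) gave 1 WT library, 2 of clones that carry a TK+ integrant and keep the gain, and 5 of 5 1q-loss clones, clone 11 by the CO version and the others by the NS version. A2780 (ovarian cancer, 1q gain) gave 2 WT libraries, 2 with the TK+ integrant and 6 of 3 1q-loss clones made with the NS version. MCF10A (non-tumour breast epithelium with an extra 1q) gave 2 WT libraries and 8 of 4 1q-loss clones, and the same numbers with hRASV12, an activated RAS oncogene, expressed in both the WT and the clones (MCF10A hRas); clone 4 was made with the CO version and the others with the TR version. Every loss group is made of single-cell-derived clones, so libraries of 1 clone share their origin, and in A2058, HCT116 and MCF10A the controls were not cloned. The labels name no clone for the A2780 controls or the AGS WT library either. Where nothing in the labels says that libraries come from separate cultures, p-values measure only the spread between these libraries.

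The 26S proteasome degrades proteins tagged with ubiquitin. Its 20S core is a barrel of alpha and beta rings, in which some beta subunits cut the substrate, and its 19S particle has a base of ATPases that unfolds the substrate and a lid that removes ubiquitin. Each constitutive subunit occupies a fixed place in the complex, and dedicated chaperones guide assembly. Interferon induces the alternative catalytic subunits PSMB8, PSMB9 and PSMB10, which form the immunoproteasome, and the 11S activator subunits PSME1 and PSME2, and it is in this form that the proteasome is best known for supplying peptides to MHC class I.

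The stretches below precede the RefSeq start of 4 genes on which the results turn, PSMB4 on 1q and 3 interferon-inducible genes, from RefSeq promoters on GRCh38.p14. Capitals mark a match to GAAANNGAAA, a core of the interferon-stimulated response element, or, in PSMB9, to TGACNNNGC, a core of the antioxidant response element read on the opposite strand. Bases of annotated exons were left out, except within 10 bases of the match in PSMB10 and PSME2.
PSMB4, chr1:151399323-151399533, plus strand: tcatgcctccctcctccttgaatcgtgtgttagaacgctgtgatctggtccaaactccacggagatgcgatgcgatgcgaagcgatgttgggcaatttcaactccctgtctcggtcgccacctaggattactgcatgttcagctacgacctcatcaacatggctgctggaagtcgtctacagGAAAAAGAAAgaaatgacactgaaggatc
PSMB9, chr6:32853979-32854160, plus strand: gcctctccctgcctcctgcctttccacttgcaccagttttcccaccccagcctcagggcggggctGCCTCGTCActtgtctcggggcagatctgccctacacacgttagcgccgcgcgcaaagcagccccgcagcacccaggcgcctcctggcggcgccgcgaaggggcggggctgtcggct
PSMB10, chr16:67936852-67936881, minus strand: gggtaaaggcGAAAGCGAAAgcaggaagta
PSME2, chr14:24146619-24146648, minus strand: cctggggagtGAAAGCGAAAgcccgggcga

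Both strands of the 250 bases before the start were searched for these cores and for TTCNNNGAA, a core of the interferon-gamma-activated site, in the 43 proteasome genes with an entry and in all 27305 promoters. GAAANNGAAA was present in 5 of the 43 genes (PSMB4, PSMB10, PSME2, PSMA4 and PSMG4; PSMD4 has no entry) and in 3.07% of all promoters. TGACNNNGC was present in 11 of 43, PSMB9, PSME1 and PSME2 among them, and in 11.03% of all. TTCNNNGAA was present in 5 of 43 (PSMA2, PSMC4, PSMD3, PSME3 and PSMA8) and in 6.78% of all. In PSMB4 the match began 68 bases before the start, in PSME2 28 bases and in PSMB10 21 bases before it. These matches describe letters only.

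Total counts per library ran from 19595543 to 28622197 in A2058, 21373588 to 30984036 in HCT116, 15042068 to 19414614 in AGS, 19358338 to 23965475 in A2780 and 15500424 to 29312644 in MCF10A. Levels are CPM, counts scaled to library size with TMM factors within a line, and changes are log2 fold changes of loss over control from edgeR, called at an adjusted p under 0.05 over all tested genes. Groups without overlap were counted for the members, not over all genes. Below and above every control lay 3 and 16 of 47 tested members in A2058 1q-loss, 2 and 0 in 7p-loss and 0 and 2 in 8q-loss. The counts were 3 and 5 of 47 in HCT116, 4 and 19 of 46 in AGS and 2 and 0 of 45 in A2780 1q-loss. They were 3 and 2 of 47 in MCF10A 1q-loss and 3 and 3 of 47 in MCF10A hRas 1q-loss. The targeted arm was lower in each comparison: the median log2 fold change of its tested genes was -0.46 in A2058, -0.54 in AGS, -0.45 in A2780, -0.49 in MCF10A and -0.36 in MCF10A hRas for 1q, -0.51 for 7p, and -0.53 in A2058 and -0.57 in HCT116 for 8q. For an arm labelled trisomic, RNA that followed a step from 3 copies to 2 would stand at 66.7% of control, a log2 change of -0.58. Markers of the labelled tissue went with the labels in part: 7 of 7 melanocyte genes averaged at least 1 CPM in A2058, 5 of 5 basal breast genes in MCF10A, 4 of 6 gastric genes in AGS, 3 of 6 intestinal genes in HCT116 and 0 of 5 ovarian tumour genes in A2780. The lists were not specific, since 5 of 6 intestinal genes passed in AGS and 4 of 5 ovarian tumour genes in MCF10A. In 2 lines the sum of the own list did not overlap between 1q-loss and control: 49.8 to 255 against 2501 to 4413 CPM in A2058, and 5833 to 7845 against 3785 to 5204 CPM in AGS, and its part in the results was not tested. Blood cell markers summed to at most 10.1 CPM in any library.

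Some members rest on few reads. PSMA8, a testis alpha subunit, and PSMB11, the thymus beta subunit, were too low to test in every comparison. The coding bases of PSMA2 are 97.1% shared with exons of another gene on the same strand, as are 88.6% of those of PSMA1, 70.3% of PSMA6, 58.7% of PSMD9 and 58.3% of PSMB10, and how reads in shared bases were assigned is not given in the sources used here. Per kilobase, PSMA1, PSMA2 and PSMA6 lay between 0.642 and 8.63 CPM in the A2058 controls, against 11.6 to 188.9 CPM for the other 28 constitutive subunits of the core and the 19S particle. In the HCT116 controls the ranges met, with PSMA1 at 5.812 and the lid subunit PSMD6 at 3.885 CPM per kilobase. PSMB4 was the most abundant of those 28 in A2058, at 188.9 CPM per kilobase. The 3 overlapped alpha subunits are therefore read as changes only, with their counts, except that their levels enter the references of the subunit balance below.

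PSMB4 and PSMD4, the subunits encoded on 1q, had lower mean levels in the 1q-loss clones of every line, and both were called in A2058, A2780 and MCF10A but not in AGS or MCF10A hRas. PSMB4 (ENSG00000159377, chr1:151399534-151401944) is a beta-ring subunit of the 20S core, and PSMD4 (ENSG00000159352, chr1:151254703-151267479) is a ubiquitin receptor of the 19S particle, both on the plus strand. In bulk RNA, fewer cells that express a gene and less RNA per cell cannot be told apart. In A2058, PSMB4 stood at 439, 389, 417 and 386 CPM in the WT libraries and at 272, 258, 267 and 247 CPM in the 1q-loss libraries. The groups did not overlap, and the mean went from 408 ± 25.3 (SD, n = 4) to 261 ± 10.98 CPM (SD, n = 4). The log2 fold change was -0.65 (SE 0.06, adjusted p = 1.576e-05, edgeR). PSMD4 went from 227, 223, 234 and 227 CPM to 146, 141, 146 and 147 CPM. That is a log2 change of -0.65 (SE 0.05, adjusted p = 2.785e-06, edgeR) with no overlap. Of the 677 tested 1q genes, 33.7% fell further than PSMB4 and 33.2% further than PSMD4, so both lay inside the spread of their arm, of whose genes 59.7% were called lower. Both calls held in each of the 19 alternatives.

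In MCF10A, PSMB4 was at 262 and 245 CPM in the WT libraries and ran from 152 to 185 CPM, median 173, over the 8 1q-loss libraries. PSMD4 was at 147 and 154 CPM in the WT and ran from 92.6 to 114 CPM, median 104, in the clones. Neither gene's groups overlapped, and all 4 clones were lower for both. The log2 fold changes were -0.58 (SE 0.08, adjusted p = 0.001898, edgeR) for PSMB4 and -0.54 (SE 0.08, adjusted p = 0.003243, edgeR) for PSMD4. These were the 2 members called in MCF10A, where 2.04% of all tested genes and 34.6% of the 1q genes (called lower) were. Both calls rested on the WT pair: without WT replicate 1 neither was called, and without WT replicate 2 PSMB4 alone was.

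With hRASV12, PSMB4 was at 257 and 243 CPM in the WT and 152 to 211 CPM, median 188, in the 1q-loss clones. PSMD4 was at 157 and 146 CPM in the WT and 104 to 129 CPM, median 114, in the clones. The groups again did not overlap, yet neither gene was called: the log2 fold changes were -0.43 (adjusted p = 0.1894) and -0.40 (adjusted p = 0.0894) by edgeR. No member was called there (0 of 47, 4 at an unadjusted p under 0.05, and 2 by DESeq2, PSMB4 and PSMD4), against 0.214% of all tested genes and 3.47% of the 1q genes called lower. Of 15851 tested genes, 2262 had such an unadjusted p, and DESeq2 called 496. The difference of the 1q-loss effect between hRASV12 and plain MCF10A was 0.14 (SE 0.15, adjusted p = 0.9989) for PSMB4 and 0.14 (SE 0.12, adjusted p = 0.9989) for PSMD4. The clones bear the same numbers with and without hRASV12, but the fit did not pair them. In clones 1 to 4, PSMB4 differed from its controls by -0.52, -0.60, -0.50 and -0.70 without hRASV12. With it the values were -0.41, -0.41, -0.26 and -0.70. PSMD4 differed by -0.43, -0.60, -0.53 and -0.61 without and -0.42, -0.40, -0.29 and -0.51 with it. A paired difference was not tested. In that interaction test edgeR called 0 members and 0% of all genes, with 0 members at an unadjusted p under 0.05 and 0 called by DESeq2. Of 16492 tested genes, 366 had such an unadjusted p, and DESeq2 called 1.

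In A2780, PSMB4 was at 199.9 and 189 CPM in the WT and 225 and 200.3 CPM in the TK+ libraries, and ran from 130.5 to 179.9 CPM, median 161, in the 6 1q-loss libraries. PSMD4 was at 217 and 201 CPM in the WT, 213 and 184 CPM in the TK+ libraries, and 134 to 159 CPM, median 148, in the clones. Both genes were lower in all 3 clones without overlap, and they were the 2 members called (11.8% of all tested genes were, and 48.7% of the 1q genes were called lower): -0.38 (SE 0.10, adjusted p = 0.03159, edgeR) for PSMB4 and -0.46 (SE 0.07, adjusted p = 0.001434, edgeR) for PSMD4. PSMD4 kept its call in all 21 alternatives. PSMB4 lost it in 8 of 21, with the libraries of a clone summed, with the WT libraries alone as controls, without 1q-loss clone 2 or its replicate 1, and without any 1 of the 4 control libraries.

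In AGS, PSMB4 was at 213 CPM in the WT library and 232 and 186 CPM in the TK+ clones, and at 162, 152, 161, 164 and 167 CPM in the 1q-loss clones. PSMD4 was at 133, 145 and 114 CPM in the controls and 124, 105, 101, 92.6 and 101 CPM in the clones. PSMB4 did not overlap, while PSMD4 of 1 loss clone exceeded the lower TK+ clone. Neither was called: -0.38 (adjusted p = 0.05302) and -0.32 (adjusted p = 0.14) by edgeR. PSMB4 was called in 2 of 14 alternatives, DESeq2 and TMM factors from genes outside 1q, and PSMD4 in 0 of 14. These values are relative to all genes, and 66.8% of the tested 1q genes fell further than PSMB4 and 72.2% further than PSMD4.

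**Figure D1:**
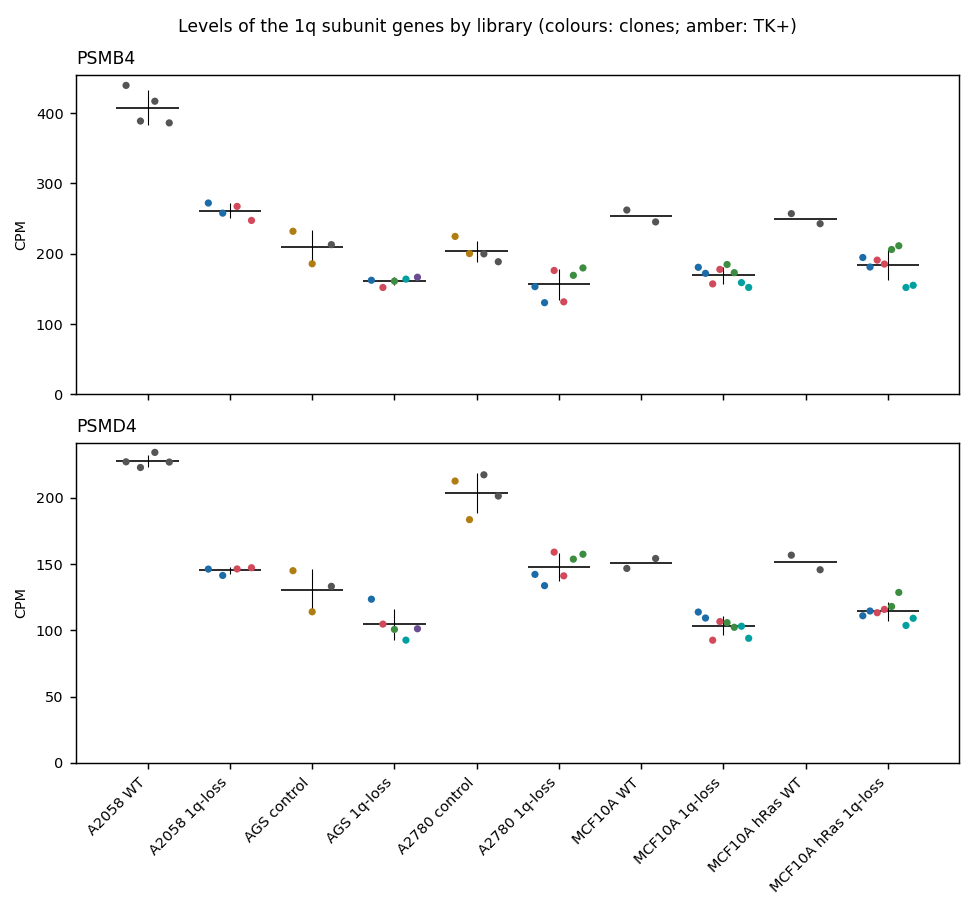
Levels in CPM of PSMB4 and PSMD4 (vertical axes from 0) in each library of the 5 1q-loss comparisons. Each point is a library, coloured by clone in the loss groups, grey for WT and amber for TK+; horizontal bars are means and vertical lines the SD where a group has over 2 libraries. In A2058 the 4 loss libraries of PSMB4, 247 to 272 CPM, sit under the 4 WT libraries, 386 to 439 CPM, and PSMD4 in AGS is the panel in which loss and control overlap.

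Among the A2058 clones that lost other arms, 7p-loss clone 1 was below every WT library for both genes, at 307 and 322 CPM for PSMB4 and 193 and 191 CPM for PSMD4. PSMB4 ran in all from 307 to 454 CPM in the 7p-loss and 383 to 412 CPM in the 8q-loss libraries, and PSMD4 from 191 to 235 and 215 to 238 CPM. Set directly against the 7p-loss and 8q-loss libraries, the 1q-loss libraries were lower by a log2 change of -0.58 (SE 0.09, adjusted p = 4.766e-05, edgeR) for PSMB4 and -0.61 (SE 0.06, adjusted p = 5.446e-07, edgeR) for PSMD4. Both were called in all 32 alternatives. The loss comparisons of A2058 against WT share the 4 WT libraries, and the comparisons among its clones share the clones, so each is given by its own values.

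PSMA2 and PSMG3, the members on 7p, were lower in the 7p-loss clones of A2058. PSMA2 (ENSG00000106588, chr7:42916857-42932223) is an alpha-ring subunit of the 20S core and PSMG3 (ENSG00000157778, chr7:1567330-1571005) a chaperone for the assembly of that ring, both on the minus strand. PSMG3 stood at 67.4, 72.9, 80.5 and 90.7 CPM in the WT and ran from 37.2 to 60.6 CPM, median 58.2, in the 6 7p-loss libraries. PSMA2 stood at 7.10, 5.54, 6.003 and 5.58 CPM in the WT and ran from 2.71 to 4.17 CPM, median 3.87, on 76 to 94 reads a library. For neither gene did the groups overlap. The log2 fold changes were -0.69 (SE 0.16, adjusted p = 0.0925) for PSMA2 and -0.57 (SE 0.16, adjusted p = 0.1773) for PSMG3, not called by edgeR. No member was called (0 of 47, with 2 at an unadjusted p under 0.05 and 2 by DESeq2), against 0.908% of all tested genes and 27.8% of 7p genes called lower. Of 15305 tested genes, 1986 had such an unadjusted p, and DESeq2 called 525.

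Against the 1q-loss and 8q-loss clones of the same line, in place of the WT, both 7p genes were called: -0.60 (SE 0.15, adjusted p = 0.006615, edgeR) for PSMA2 and -0.47 (SE 0.13, adjusted p = 0.01237, edgeR) for PSMG3. PSMA2 was at 4.63, 5.22, 7.31 and 6.53 CPM in the 1q-loss and 4.94, 5.21, 4.34 and 7.27 CPM in the 8q-loss libraries, all above the highest 7p-loss library. PSMG3 was at 65.7 to 73.8 and 59.6 to 92.7 CPM, and the lowest 8q-loss library lay within the 7p-loss range. In all, 12 members were called in this contrast, 3 higher and 9 lower, against 26.9% of all tested genes. Leaving out 1 library or clone gave 5 to 14 called members. The 3 higher members were PSMD11, a lid subunit, and PSMB4 and PSMD4, whose comparison libraries here include the 1q-loss clones. Neither 7p call held when the libraries of a clone were summed, where 1 member was called. PSMA2 also lost its call without 1q-loss clone 2, and PSMG3 without 7p-loss clone 1, where its log2 fold change was -0.28.

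7p-loss clone 1 stood apart from the others. PSMC4, an ATPase of the 19S base, was at 122.8 and 112 CPM in clone 1 and 194 to 218 CPM in clones 2 and 3, beside 207 to 214 CPM in the WT. PSMD3, a lid subunit, was at 184 and 178 CPM in clone 1, 267 to 286 CPM in clones 2 and 3 and 277 to 317 CPM in the WT. PSMG3 was also lowest in clone 1, at 37.2 and 38.9 CPM, a log2 difference of -1.02 from the WT mean, where clones 2 and 3 differed by -0.38 and -0.39. Over the 30 constitutive subunits outside 7p, the median log2 difference from the WT mean was -0.10 and -0.21 in the libraries of clone 1 and between -0.01 and 0.02 in the other 4. Without clone 1, 2 members were called by edgeR, PSMA2 and PSMG3. The share of all tested genes called in that fit is not given.

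**Figure D2:**
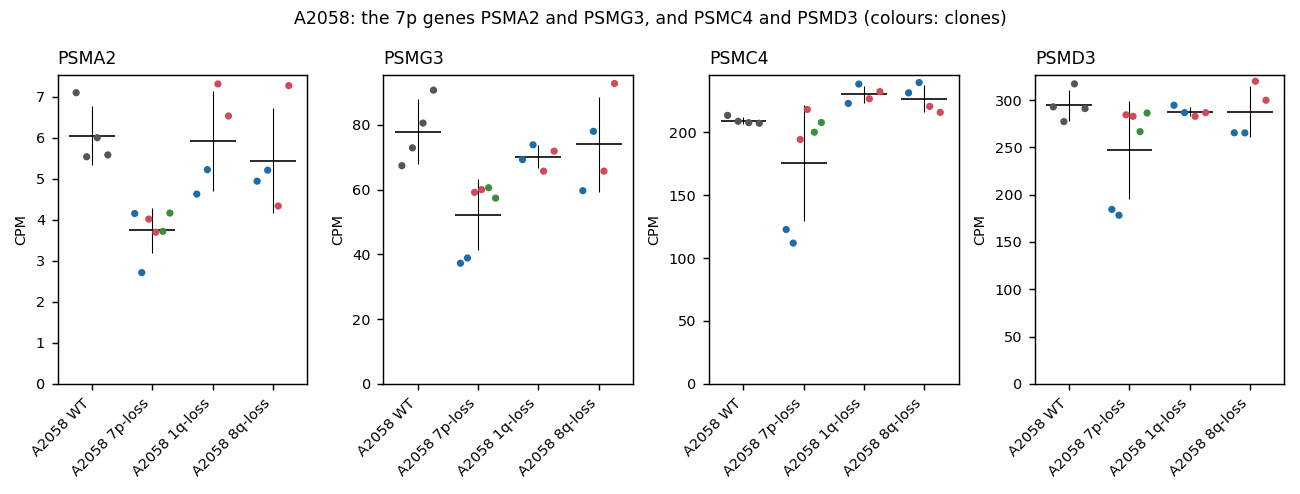
Levels in CPM (axes from 0) of PSMA2, PSMG3, PSMC4 and PSMD3 in the A2058 libraries; points are libraries, coloured by clone, bars are means and lines the SD. PSMA2 and PSMG3 of the 7p-loss clones lie below the WT, while PSMC4 and PSMD3 are low in clone 1 (blue), at 112 to 122.8 and 178 to 184 CPM.

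Set against the rest of their own particle, the 1q subunits were short in every 1q-loss library. For each library the log2 level of PSMB4 minus the median log2 level of the 13 other constitutive 20S subunits was taken relative to the controls, and likewise PSMD4 with 16 other 19S subunits. This is a description with no test, and the value depends on how the reference is formed, so 4 forms are given as a range. The levels of PSMA1, PSMA2 and PSMA6 enter the main reference of PSMB4, and the form built from changes does not use levels. PSMB4 averaged -0.84 in A2058 (lowest library -0.90, highest -0.81), -0.74 in AGS, -0.58 in A2780, -0.50 in MCF10A and -0.36 in MCF10A hRas. Over the 4 forms of the reference, these means ran from -0.84 to -0.66 in A2058, -0.74 to -0.68 in AGS, -0.58 to -0.34 in A2780, -0.59 to -0.50 in MCF10A and -0.52 to -0.36 in MCF10A hRas. In A2780 the choice of reference thus moved the log2 value by over 1.5 times, from -0.58 to -0.34, or from 67.1% to 79.0% of control. One of the forms, the median of the other subunits' own changes, was added after the values had been seen.

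PSMD4 averaged -0.65 in A2058, -0.65 in AGS, -0.51 in A2780, -0.54 in MCF10A and -0.30 in MCF10A hRas. The means ran over the forms from -0.73 to -0.65, -0.70 to -0.65, -0.51 to -0.42, -0.59 to -0.54 and -0.48 to -0.30, and in MCF10A hRas the form again moved the log2 value by over 1.5 times. In AGS neither subunit was called against all genes, and both stood further below their particle (-0.74 and -0.65) than below all genes (-0.38 and -0.32). PSMA2 averaged -0.62 (lowest -0.77, highest -0.34) against the 13 other core subunits in the 7p-loss libraries, on the low counts given above.

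**Figure D3:**
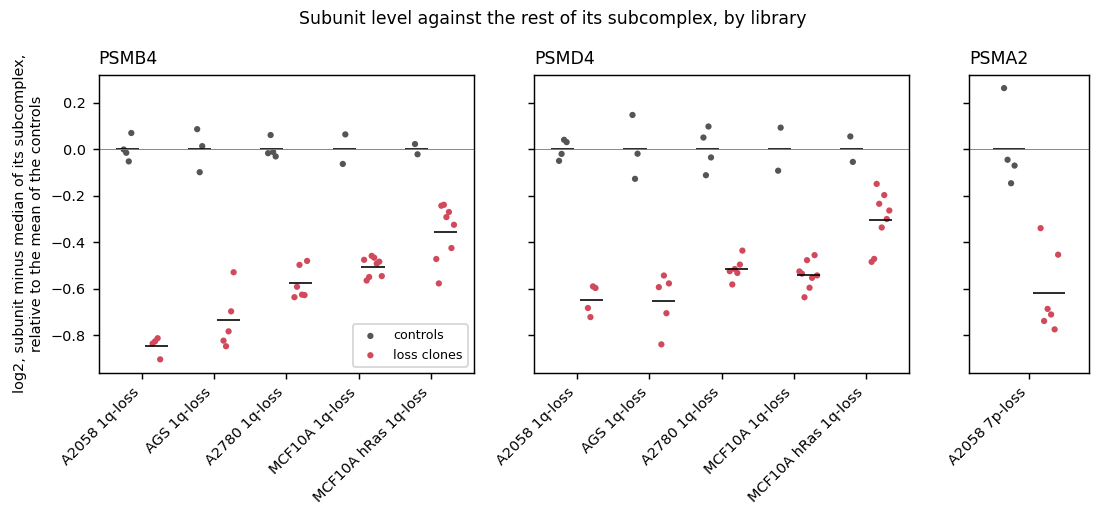
Log2 level of PSMB4, PSMD4 or PSMA2 minus the median of the other constitutive subunits of its subcomplex, relative to the mean of the controls (vertical axis, log2; 0 is the control mean). Points are libraries, grey for controls and red for loss clones, and bars are means; every loss library lies below 0 and below its controls, with PSMB4 at -0.90 to -0.81 in A2058 and -0.58 to -0.24 in MCF10A hRas.

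Most constitutive subunits encoded outside 1q had log2 fold changes above 0 in AGS, and 4 of 29 were called. Of these 29, 28 had a log2 fold change above 0, with a median of 0.37, beside 0.02 for all tested genes outside 1q. The median log2 difference of these subunits from the control mean was 0.47, 0.40, 0.36 and 0.32 in clones 1, 4, 6 and 7 and 0.16 in clone 11, and 0.02, 0.10 and -0.08 in the controls. Among all members, 5 of 46 were called, 4 higher and 1 lower, against 7.55% of all tested genes, a share near the background. The 4 were PSMC4, a base ATPase, and the lid subunits PSMD3, PSMD6 and PSMD7.

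PSMD6 was at 66.9, 71.6 and 61.0 CPM in the AGS controls and 105.0, 99.98, 92.2, 99.0 and 81.8 CPM in the loss clones, without overlap. Its log2 fold change was 0.53 (SE 0.11, adjusted p = 0.02628, edgeR). PSMC4 was at 105, 129 and 93.2 CPM in the controls and 177, 159.6, 170.5, 165 and 131 CPM in the clones, with a log2 change of 0.56 (SE 0.14, adjusted p = 0.0453, edgeR). PSMD3 changed by 0.45 (adjusted p = 0.03694) and PSMD7 by 0.39 (adjusted p = 0.04959) by edgeR. PSMC3 had the largest log2 fold change, 0.73, but was not called (adjusted p = 0.1279): its loss clones ran from 77.3 to 153.7 CPM beside 59.4 to 71.7 CPM in the controls. The AGS calls were not stable. DESeq2 called 17 members, 14 higher and 3 lower, where it called 2232 genes in all and edgeR 1131. Leaving out 1 library gave 0 without WT, without either TK+ clone or without loss clone 7, 1 without clone 1 or 6, 3 without clone 4, and 14 without clone 11.

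In the other lines the constitutive subunits outside the targeted arm lay near the rest of the genes. Their median log2 fold change was 0.05 in A2058 1q-loss, 0.01 in A2780, -0.00 in MCF10A, -0.04 in MCF10A hRas, -0.04 in A2058 7p-loss and -0.06 in A2058 8q-loss. It was 0.13 in HCT116, where the 2 clones parted: the median difference from the WT mean was 0.24 and 0.25 in the libraries of clone 1 and -0.10 and -0.14 in clone 2. Core and 19S subunits differed in 2 lines. In HCT116, 15 of 17 19S subunits were above 0 (median 0.23) and 8 of 14 core subunits (median 0.04). In MCF10A 1q-loss, 12 of 13 core subunits were below 0 (median -0.09), while 12 of 16 19S subunits were above 0 (median 0.05). No member was called after 8q loss in HCT116 (0 of 47, 2 at an unadjusted p under 0.05, 0 by DESeq2), where 0.14% of all tested genes were, or in A2058 (0 of 47, 1 at an unadjusted p under 0.05, 0 by DESeq2), where 2.03% were. Such an unadjusted p was reached by 854 of 15659 tested genes in HCT116 and 1973 of 15141 in A2058. DESeq2 called 117 and 684 genes there.

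**Figure D4:**
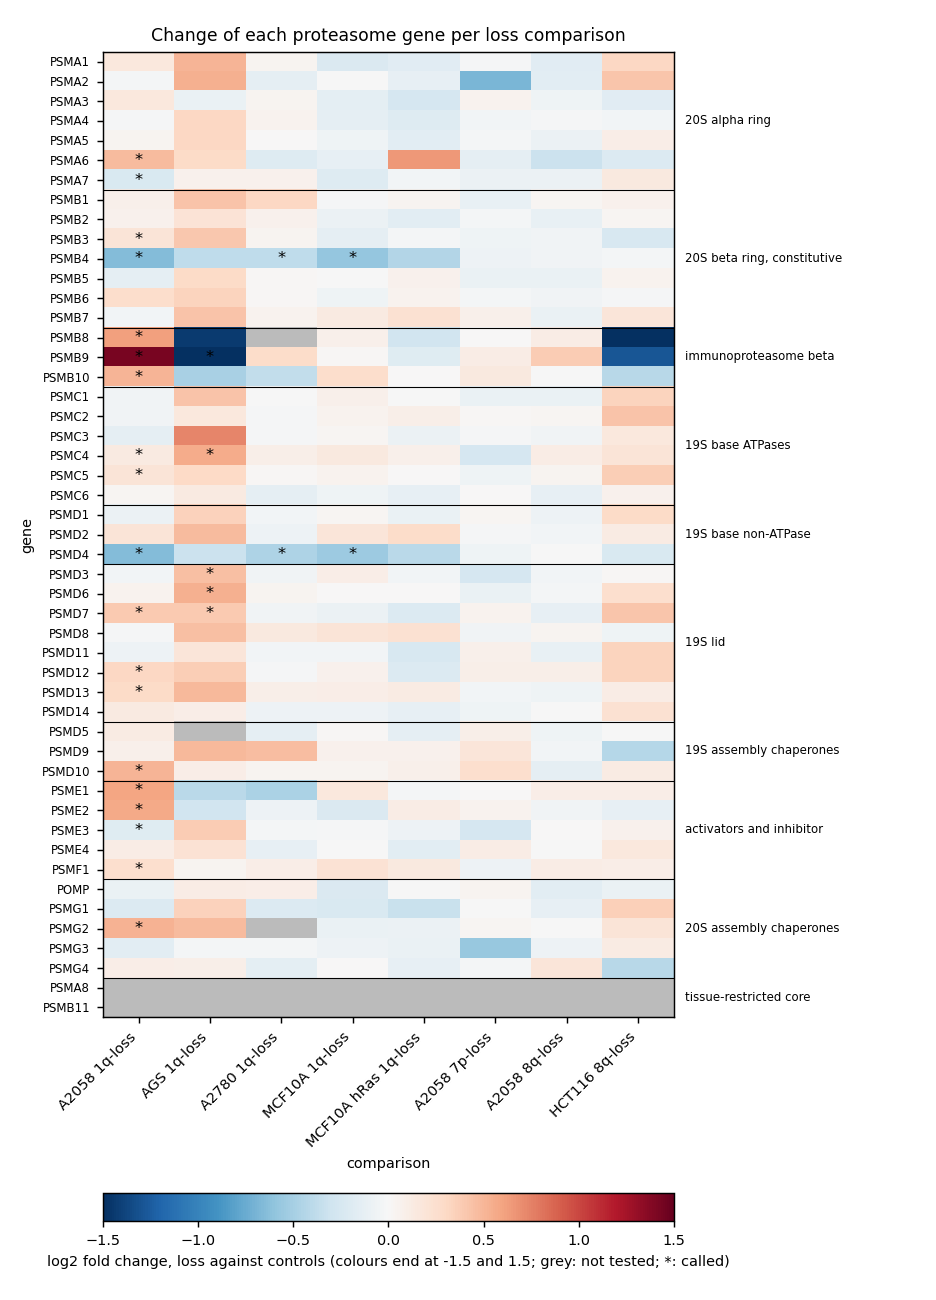
Log2 fold change of loss over control (colour, ends at -1.5 and 1.5) of each proteasome gene (rows, by role) in the 8 loss comparisons (columns); an asterisk marks an adjusted p under 0.05 by edgeR and grey a gene not tested. PSMB4 and PSMD4 are blue in the 5 1q-loss columns, PSMA2 and PSMG3 in the 7p-loss column, and PSMB9 is red in A2058 1q-loss (1.43) and blue in AGS 1q-loss (-2.27).

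In A2058 1q-loss, 19 of 47 members were called, 15 higher and 4 lower. That is 40.4% of the members, beside 49.6% of all tested genes, so the proteasome genes were not called more often than others. The 15 higher members were the 3 immunoproteasome subunits, PSME1, PSME2 and the inhibitor PSMF1, the alpha subunit PSMA6, the beta subunit PSMB3, the ATPases PSMC4 and PSMC5, the lid subunits PSMD7, PSMD12 and PSMD13, and the chaperones PSMD10 and PSMG2. The 4 lower members were PSMB4, PSMD4, the alpha subunit PSMA7 (-0.23, adjusted p = 0.01578) and the nuclear activator PSME3 (-0.19, adjusted p = 0.03106) by edgeR. PSMA7 lost its call in 4 of 19 alternatives, with the libraries of a clone summed, with the replicate block, without 1q-loss clone 2, and with WT replicates 1 and 2 alone (-0.15), and PSME3 in 11 of 19. Of the 8 called constitutive subunits outside 1q, PSMA6 had the largest change, 0.47 (adjusted p = 0.03459), on 75 to 144 reads a library.

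The interferon-inducible members were higher in A2058 1q-loss. PSMB9, a catalytic subunit of the immunoproteasome, was at 5.58, 7.92, 8.40 and 7.40 CPM in the WT and 18.8, 16.4, 23.3 and 20.6 CPM in the 1q-loss libraries. The groups did not overlap, and the log2 fold change was 1.43 (SE 0.15, adjusted p = 3.012e-05, edgeR). PSMB8 was at 37.9, 44.8, 36.5 and 44.5 CPM in the WT and 59.0, 68.4, 62.2 and 62.0 CPM in the loss libraries, a log2 change of 0.62 (SE 0.09, adjusted p = 0.0001776, edgeR). PSMB10 rose by 0.51 (SE 0.13, adjusted p = 0.006328, edgeR) on 96 to 193 reads, a call lost with WT replicates 3 and 4 alone as controls. Exons of PSMB8 share 20.6% of their bases with another gene, chiefly the antisense gene PSMB8-AS1, and reads of the 2 strands cannot be told apart unless the counting used strand.

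PSME1 and PSME2 encode the alternating subunits of the 11S cap. PSME1 was at 75.3, 76.1, 90.0 and 75.8 CPM in the WT and 115, 117, 127.0 and 122 CPM in A2058 1q-loss, a log2 change of 0.60 (SE 0.07, adjusted p = 6.571e-05, edgeR). PSME2 was at 70.3, 70.5, 71.5 and 68.3 CPM in the WT and 105, 104, 103 and 105.5 CPM in the loss libraries, a log2 change of 0.57 (SE 0.05, adjusted p = 8.371e-06, edgeR). Neither overlapped. The calls of PSMB8, PSMB9, PSME1 and PSME2 held in each of the 19 alternatives. All 5 genes were called higher, where 25.3% of all tested genes were. The 1q-loss clones also stood apart in the melanocyte markers, whose part in these results was not tested: the 7 genes summed to 200 to 255 CPM in clone 1 and 49.8 to 63.0 CPM in clone 2, against 2501 to 4413 CPM in the WT, 1201 to 4942 CPM in the 7p-loss and 2089 to 3868 CPM in the 8q-loss libraries. TYR and TYRP1 averaged under 1 CPM in both 1q-loss clones and in 7p-loss clone 3.

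The comparison with the other A2058 clones gave calls for 4 of these 5 genes. Against the 7p-loss and 8q-loss libraries, the 1q-loss libraries were higher for PSMB9 by 1.19 (SE 0.26, adjusted p = 0.001469), PSME2 by 0.57 (SE 0.07, adjusted p = 2.541e-06), PSME1 by 0.54 (SE 0.07, adjusted p = 3.228e-06) and PSMB8 by 0.56 (SE 0.12, adjusted p = 0.001172) on the log2 scale in edgeR. PSMB10 differed by 0.44 and was not called (adjusted p = 0.07971, edgeR): 7p-loss clone 1 was at 7.81 and 8.60 CPM, as high as the 1q-loss libraries, and the other 7p-loss and 8q-loss libraries at 3.49 to 6.44 CPM. In that contrast 18 members were called, 16 higher and 2 lower, against 42% of all tested genes, and 11 when the libraries of a clone were summed. Within the 7p-loss clones PSMB9 was uneven: 12.5 and 9.64 CPM in clone 1, 11.5 and 6.62 in clone 2, and 4.06 and 3.01 in clone 3. In the 8q-loss libraries it was at 10.9, 8.53, 10.5 and 8.34 CPM.

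In AGS the same 5 genes had log2 fold changes below 0, and 1 was called. PSMB9 was at 5.99 CPM in the WT and 15.0 and 12.2 CPM in the TK+ clones, and at 1.45, 0.399, 2.72, 2.24 and 4.59 CPM in the 1q-loss clones, on 7 to 69 reads in each loss library. The groups did not overlap, and the log2 fold change was -2.27 (SE 0.56, adjusted p = 0.04188, edgeR). The WT library lay nearer the loss clones than the TK+ clones did. The call was lost in 7 of 14 alternatives, with the WT library alone as control, without any 1 of the 3 controls, and without loss clone 1, 6 or 7. With the WT library alone as control the log2 fold change was -1.40, smaller by over 1.5 times. PSMB8 was at 38.5, 58.5 and 53.7 CPM in the controls and 10.04, 6.33, 25.4, 23.7 and 27.5 CPM in the loss clones, a change of -1.43 (adjusted p = 0.06958, edgeR). PSMB10, PSME1 and PSME2 changed by -0.48, -0.41 and -0.29 (adjusted p = 0.3813, 0.1322 and 0.4106, edgeR).

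**Figure D5:**
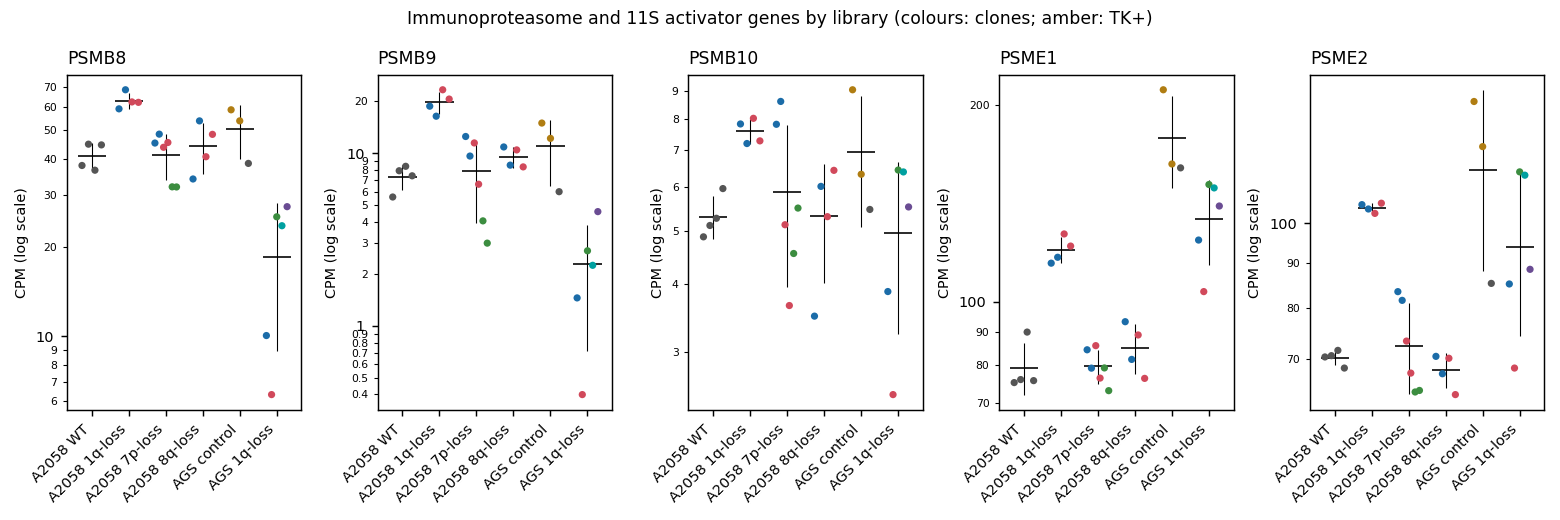
Levels in CPM (log axes) of PSMB8, PSMB9, PSMB10, PSME1 and PSME2 in the A2058 and AGS libraries; points are libraries, coloured by clone in the loss groups, grey for WT and amber for TK+, bars are means and lines the SD. The A2058 1q-loss libraries lie above the A2058 WT for all 5 genes (PSMB9 16.4 to 23.3 against 5.58 to 8.40 CPM), and the AGS 1q-loss libraries below the AGS controls for PSMB8 and PSMB9.

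The difference of the 1q-loss effect between AGS and A2058 was fitted over the libraries of both lines, after the opposite directions had been seen. AGS minus A2058 was -3.71 (SE 0.59, adjusted p = 0.0002736) for PSMB9, -2.06 (SE 0.46, adjusted p = 0.003465) for PSMB8, -1.01 (SE 0.17, adjusted p = 0.0005252) for PSME1, -0.87 (SE 0.22, adjusted p = 0.008382) for PSME2 and -1.003 (SE 0.35, adjusted p = 0.04967) for PSMB10 on the log2 scale in edgeR. The PSMB10 call was lost in 3 of 6 alternatives, with RLE size factors, with no filter and with the libraries of a clone summed. For the 1q subunits the difference was 0.26 (adjusted p = 0.1233) for PSMB4 and 0.325 (adjusted p = 0.08708) for PSMD4, not called by edgeR; DESeq2 called the PSMD4 difference (adjusted p = 0.02991). In this contrast 13 members were called, 8 higher and 5 lower, against 24.2% of all tested genes, and 6 with the libraries of a clone summed. The 8 higher were PSMC3 (0.85), PSME3 (0.57), PSMD3, PSMD6, PSMC1, PSMB7, PSMD1 and PSMB5, the last 6 between 0.40 and 0.48. The lines differ in tissue, in method version and in having TK+ controls, and the part of these in the difference was not tested.

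A list of 10 other genes of class I antigen presentation and the interferon response was set beside these members. In A2058 1q-loss edgeR called 10 of 10 higher, with a median log2 fold change of 0.58 beside -0.00 for all tested genes, led by the class I gene HLA-B at 3.02 and the transcription factor IRF1 at 1.68. Of all tested genes, 25.3% were called higher there. Against the 7p-loss and 8q-loss clones it called 5 of 10, all higher, where 42% of all tested genes were called in either direction, a share near the background. HLA-B was also called higher in A2058 8q-loss, against the same WT libraries, by 1.04 (SE 0.22, adjusted p = 0.04131, edgeR), the 1 of 10 called there, beside 2.03% of all tested genes. The list is not reported here for the other lines.

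Among the remaining lines the immunoproteasome genes differed in level and none was called in a loss comparison. PSMB8 was at 0 to 0.309 CPM in all A2780 libraries, on at most 7 reads, and was not tested there. In HCT116 it was at 2.50 and 2.37 CPM in the WT and 0.774, 0.433, 0.132 and 0.0699 CPM in the 8q-loss libraries, on 2 to 20 reads, without overlap and not called (adjusted p = 0.6085, edgeR). PSMB9 in HCT116 was at 12.3 and 9.94 CPM in the WT and 8.05, 3.15, 3.68 and 3.46 CPM in the loss libraries, also without overlap (adjusted p = 0.6452, edgeR). In MCF10A PSMB9 stayed between 0.310 and 2.79 CPM in every library. Libraries were scaled within each line, so levels are not tested between lines.

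The assembly chaperones and the remaining regulators changed in few comparisons. PSMD5 was too low to test in AGS 1q-loss, with 5 reads over all its libraries, and PSMG2 in A2780 1q-loss, with 84. PSMG2, which pairs with PSMG1 to build the alpha ring, was at 40.8 to 47.3 CPM in the A2058 WT and 62.1 to 64.2 CPM in the 1q-loss libraries, without overlap. It rose by 0.53 (SE 0.07, adjusted p = 7.831e-05, edgeR), and stood at 42.2 to 47.3 CPM in the 7p-loss and 42.4 to 44.6 CPM in the 8q-loss clones. PSMD10, a chaperone of the 19S base, was at 30.2 to 42.6 CPM in the WT and 47.0 to 55.9 CPM in A2058 1q-loss and rose by 0.51 (adjusted p = 0.002653, edgeR). PSMF1, an inhibitor of the 20S core, was at 120.8 to 130.5 CPM in the WT and 147 to 155.0 CPM in the loss libraries and rose by 0.26 (adjusted p = 0.002149, edgeR). POMP, the chaperone that closes the beta ring, ran from 216 to 249.8 CPM in the A2058 WT and from 185 to 255 CPM in 1q-loss, with a log2 fold change of -0.10 (adjusted p = 0.4632, edgeR). None of POMP, PSMG1, PSMG4, PSMD9 and PSME4 was called in any of the 8 loss comparisons by edgeR, and PSMG3 was not called in them either. In the AGS 1q-loss clones PSMG2 changed by 0.47 (adjusted p = 0.07932) and PSME3 by 0.39 (adjusted p = 0.05759) in edgeR.

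The TK+ integrant alone went with 2 called members in A2780, PSME1 and PSMD5. PSME1 was at 10.6 and 12.2 CPM in the WT and 26.1 and 23.1 CPM in the TK+ libraries, a log2 change of 1.11 (SE 0.13, adjusted p = 7.818e-05, edgeR). PSMD5, a chaperone of the 19S base, went from 107 and 113 CPM to 83.8 and 71.9 CPM, a change of -0.49 (SE 0.09, adjusted p = 0.003176, edgeR). Both calls held in all 9 alternatives, and these were 2 of 46 tested members, beside 11.2% of all tested genes called. The 1q-loss libraries of A2780 ran from 9.34 to 16.9 CPM for PSME1, overlapping the WT, and the log2 fold change against WT and TK+ together was -0.47 (adjusted p = 0.276, edgeR). hRASV12 alone, in MCF10A WT, went with no called member (0 of 47, 4 at an unadjusted p under 0.05, 0 by DESeq2), against 1.62% of all tested genes. Of 14646 tested genes, 2083 had such an unadjusted p, and DESeq2 called 306.

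Factors that regulate or escort the proteasome included 1q genes of their own. Of 21 listed, IPO9, which imports proteasomes into the nucleus, and UBQLN4, a shuttle for ubiquitinated proteins, both on 1q, were called lower in A2058 (-0.68 and -0.54), AGS (-0.46 and -0.89), A2780 and MCF10A, and UBQLN4 also in MCF10A hRas. UCHL5, a deubiquitinase of the 19S particle on 1q, was called lower in A2058, A2780 and MCF10A. NFE2L1, the transcription factor that raises proteasome subunit genes when the proteasome is impaired, rose in A2058 1q-loss by 0.49 (SE 0.07, adjusted p = 0.0002464, edgeR). It changed by -0.39 in AGS (adjusted p = 0.05978, edgeR), and the difference between the lines was -0.89 (SE 0.13, adjusted p = 9.529e-05, edgeR). In A2058 1q-loss 10 of the 21 were called, 5 higher and 5 lower, beside 49.6% of all tested genes, a share near the background. In AGS 2 were called, beside 7.55% of all genes, in A2780 3, beside 11.8%, and in MCF10A 3, beside 2.04%, all of them lower and on 1q. For genes on the lost arm the nearer background is the share of 1q genes called lower, 48.7% in A2780 and 34.6% in MCF10A.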

How the data were processed

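Poly-A RNA-seq of 62 libraries was deposited by the authors as raw read counts per gene. Per the submitters' processing notes, reads were aligned with HISAT2 2.0.5 and counted with featureCounts 1.5.0-p3, with hg38 named as the build; the A2780 tables carry GRCh37 coordinates per the file headers. Handling of reads shared by overlapping genes and strand setting are not given in the sources used here. No row named no gene.

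Groups were taken from the labels. Each comparison was fitted on its own libraries with edgeR 4.0.16 (filterByExpr at a minimum count of 10, TMM, quasi-likelihood F-test, Benjamini-Hochberg over all tested genes) in R 4.3.3; log2 CPM used a prior count of 2. DESeq2 1.42.0 was an alternative. AGS and A2780 controls pooled WT and TK+ libraries. Overlaps came from GENCODE 29. Same-numbered replicates did not deviate together in every pair of any comparison with 3 or more pairs, so fits have no block. The scripts were tested on simulated counts. Any proteasome gene could be named; values in every library were given for members on the targeted arm, the immunoproteasome and 11S genes, and the members outside the arm called most often. Per related list the 2 called genes with the largest change were named; NFE2L1 and UCHL5 were chosen after their values were seen. A further gene of a related list is not reported here. The members, lists and tests were chosen with earlier results of these data known.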

Additional observations from a re-analysis of the deposited data

Results flagged for a closer look

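Of 34 sets of libraries, each the levels of 1 gene in 1 group of 4 to 8, examined for a library far from the others, 3 held one, and chance gives about 1 in 20. PSME1 in A2058 WT replicate 3 was at 89.95 CPM, with the next library at 76.1 CPM. PSMA7 in A2058 1q-loss clone 1 replicate 1 was at 211.9 CPM, with the next at 193.5 CPM. PSMA2 in A2058 7p-loss clone 1 replicate 2 was at 2.713 CPM, with the next at 3.70 CPM.

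The 1q-loss effect differed between AGS and A2058 by edgeR for the 5 interferon-inducible members, in a test fitted after the opposite directions had been seen and in which 24.2% of all tested genes were called: AGS minus A2058 was -3.714 for PSMB9, -2.056 for PSMB8, -1.011 for PSME1, -1.003 for PSMB10 and -0.8656 for PSME2 on the log2 scale. The PSMB10 call (adjusted p = 0.04967) was lost in 3 of 6 alternatives.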

How the results depend on the processing

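Of the genes and comparisons refitted under the alternatives, 0 reversed direction; the other genes named were not refitted. Of the alternatives to the main values, 1138 left the result on its side of the threshold or within its spread, 105 lost a call, 9 gained one and 45 moved a count or value. Counts of called members over fits that leave out 1 library or clone ran from 14 to 20 in A2058 1q-loss, 0 to 2 in A2058 7p-loss, 0 to 1 in A2058 8q-loss, 0 to 0 in HCT116, 0 to 14 in AGS, 1 to 2 in A2780 1q-loss, 2 to 11 in A2780 TK+, 0 to 2 in MCF10A 1q-loss, 0 to 0 in MCF10A hRas 1q-loss and in MCF10A hRas, 12 to 22 in 1q-loss against the other A2058 clones, 5 to 14 in 7p-loss against them, and 0 to 0 in the interaction. The shares of all genes called in these fits, and in the refits below other than DESeq2, are not given.

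DESeq2 called 2 members in A2058 7p-loss, 17 in AGS and 2 in MCF10A hRas 1q-loss, where it called 525, 2232 and 496 genes in all. With WT libraries alone as controls, 0 were called in AGS and 1 in A2780 1q-loss. With the libraries of a clone summed, 1 was called in A2780 1q-loss, 11 in 1q-loss against the other A2058 clones, 1 in 7p-loss against them and 6 in AGS minus A2058. With no filter on low counts, 1 was called in MCF10A hRas. With the replicate block, 1 was called in MCF10A hRas, 17 in A2058 1q-loss, 3 in A2780 TK+ and 16 and 11 in the direct A2058 contrasts; the block changed no other count of members by over 1.5 times, and the numbers are shared only as names.

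The subunit balance moved by more than the spread between libraries as follows. With the mean of the other subunits it was -0.7188 for PSMB4 and -0.7306 for PSMD4 in A2058, and -0.4071 and -0.454 in A2780. With all constitutive subunits as reference it was -0.66 for PSMB4 in A2058, -0.3391 and -0.4162 in A2780, -0.5877 for PSMB4 in MCF10A, and -0.5193 and -0.4797 in MCF10A hRas. With the median of the other subunits' changes, added after the data had been seen, it was -0.7228 for PSMB4 in A2058, and -0.4171 and -0.4462 in A2780. The cause of these shifts was not tested. PSMA2, PSMA6 and PSMB10, PSMB9 in AGS and MCF10A, and PSMB8 in A2780 and HCT116 rest on few reads, which limits the precision of their changes.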
